A study of Mus musculus with 36 samples.

Results

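Igf1 and the insulin-like growth factor signaling machinery were followed in 2 blood-forming populations of mouse bone marrow, long-term stem cells (LT-HSC) and the progenitors HPC-1. The 8 genes, chosen by symbol after their genotype comparisons in these libraries had been seen, were Igf1, Igf1r, Insr, Irs1, Irs2, Igf2bp2, Igf2bp3 and Igfbp4, out of 38887 genes in the count table. Their genotype differences are therefore given as a description, with no p. The same libraries gave the comparisons of cell type and of agent, so the p values printed for those comparisons are not independent evidence either.

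The study asked how the IL-27 receptor shapes blood stem and progenitor cells in mice prone to atherosclerosis and aortic aneurysm. All mice carried Apoe -/-, were male and female, and were fed a Western diet from 8 weeks of age. The 3 Il27ra genotypes were WT, +/- (het) and -/- (KO), and the agent, Ang II or PBS, was infused over 2 weeks. For each library 5000 cells were sorted from the lineage-negative, Sca-1 and c-Kit positive pool, LT-HSC as CD150+ CD48- and HPC-1, which the labels call ST-HSC, as CD150- CD48+. The 36 libraries form 12 groups. LT-HSC were sequenced from PBS WT (n = 1), PBS het (n = 3), PBS KO (n = 3), Ang II WT (n = 2), Ang II het (n = 4) and Ang II KO (n = 4) mice. HPC-1 were sequenced from PBS WT (n = 2), PBS het (n = 3), PBS KO (n = 3), Ang II WT (n = 3), Ang II het (n = 4) and Ang II KO (n = 4) mice. The labels do not state the sex or the batch of a library, nor whether replicates came from separate animals, so p values measure the spread between these libraries. The paper's legend counts mice for this sequencing, and its own test used sex as a factor.

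Libraries held 1980283 to 6861078 counts, with a median of 2560838 in LT-HSC (n = 17) and 3254832 in HPC-1 (n = 19). Levels are CPM, counts scaled to the TMM-normalized library size, and 3 counts were taken as the floor below which a level was not read. The floor covers counting error only. Bulk libraries cannot tell fewer cells with a transcript apart from less of that transcript in each cell.

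Il27ra, the targeted gene, was read first because it checks the genotype labels. In LT-HSC it stood at 42.9 and 51.8 CPM in the Ang II WT libraries, at 25.5 to 32.8 CPM in Ang II het and at 11.7 to 19.3 CPM in Ang II KO. Under PBS it stood at 24.1 to 42.7 CPM in het and at 6.94 to 16.3 CPM in KO. The library labelled PBS WT held 17.1 CPM, below every het library of LT-HSC and inside the range of the KO libraries, so its Il27ra goes against its label. In the other LT-HSC groups KO libraries lay below all het and WT libraries of the same agent. HPC-1 held less Il27ra, with group means of 12.2 ± 2.96 (SD, n = 3) CPM in PBS het, 11.5 ± 4.93 (SD, n = 4) in Ang II het, 10.1 ± 2.58 (SD, n = 2) in PBS WT and 8.71 ± 2.21 (SD, n = 3) in PBS KO. Ang II WT was at 8.37 ± 2.10 (SD, n = 3) CPM and Ang II KO at 6.56 ± 1.85 (SD, n = 4). These HPC-1 ranges overlapped between all genotypes, so in HPC-1 the genotype could not be read from Il27ra. Which exons the KO allele lacks is not given in the sources used here, and counts per gene cannot separate a transcript that is truncated from a full one.

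The sorted populations were checked against marker genes. The 9 LT-HSC markers, among them Vwf at a median of 446 CPM, summed to 266, 1756 and 2279 CPM (lowest, median and highest) in LT-HSC and to 136, 213 and 357 CPM in HPC-1. The 7 progenitor markers, led by Mpo at a median of 4799 CPM, summed to 3923, 6606 and 7782 CPM in HPC-1 and to 52.9, 147 and 5140 CPM in LT-HSC. Both labels therefore matched their markers in most libraries. Replicate 2 of LT-HSC PBS KO stood apart, with 266 CPM of LT-HSC markers and 5140 CPM of progenitor markers, the composition of an HPC-1 library. Replicate 2 of LT-HSC Ang II KO stood apart as well, with 902 CPM of LT-HSC markers, 1596 CPM of progenitor markers and 7450 CPM summed over 6 granulocyte markers. These 2 libraries and the library labelled PBS WT were set aside in a second fit, and results are given with and without the 3 libraries. Replicate 3 of LT-HSC PBS KO, which was kept, held 1274 CPM of granulocyte and 1185 CPM of erythroid markers.

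Markers of cells outside the gate were read for each library. Macrophage markers (10 genes) summed to 7.70, 26.0 and 149 CPM in LT-HSC and to 46.2, 104 and 148 CPM in HPC-1, where Csf1r, at a median of 66.6 CPM, supplied most of the sum and Adgre1 and C1qa had medians of 0. Mesenchymal stroma markers (9 genes) summed to 21.9, 29.8 and 105 CPM in LT-HSC and to 48.7, 103 and 128 CPM in HPC-1, there almost wholly Pdgfrb at a median of 100.3 CPM, with Lepr at a median of 0. Hepatocyte markers (7 genes) summed to 5.57, 13.1 and 93.3 CPM in LT-HSC and to 42.8, 85.4 and 108 CPM in HPC-1, where Trf had a median of 85.0 CPM. The other 6, Alb among them, had medians of 0 in both. Endothelial markers (6 genes) were higher in LT-HSC, at 8.56, 36.3 and 66.5 CPM led by Kdr, than in HPC-1, at 3.13, 9.23 and 13.9 CPM. Erythroid markers summed to 14.1, 51.0 and 1291 CPM in LT-HSC and to 8.93, 72.9 and 282 CPM in HPC-1, granulocyte markers to 1.26, 8.46 and 7450 CPM and to 0.308, 5.99 and 237 CPM, and B lymphoid markers to 6.97, 11.9 and 19.3 CPM and to 2.27, 14.1 and 20.6 CPM. Intestinal epithelium markers (10 genes) moved with the WT label. In LT-HSC they summed to 130, 198 and 222 CPM in the 3 libraries labelled WT, led by Muc2 at a median of 41.3 CPM and with 8 of 10 genes read in each, against 4.58, 10.2 and 13.7 CPM in the 14 het or KO libraries, where 7 of 10 genes had medians of 0. In HPC-1 they summed to 37.4, 39.7 and 202 CPM in the 5 WT libraries and to 1.39, 6.67 and 32.3 CPM in the 14 het or KO libraries. No WT library overlapped a het or KO library in this sum in either cell type, and what part this has in differences from WT was not tested. Macrophage markers also separated the WT label in LT-HSC, the other way, at 7.70, 9.95 and 12.8 CPM in WT against 16.0 to 149 CPM in het or KO, whereas in HPC-1 the labels overlapped.

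Insulin-like growth factors are small secreted hormones that resemble insulin. IGF1, made largely by liver and also by local stromal and immune cells, and IGF2 bind the receptor tyrosine kinase IGF1R, and insulin binds the related INSR, after which the docking proteins IRS1 and IRS2 pass the signal to PI3K, AKT and mTOR complex 1 while AKT keeps FOXO factors out of the nucleus. Secreted IGF binding proteins such as IGFBP4 hold the ligand away from its receptor, and IGF2BP proteins bind mRNAs, Igf2 mRNA among them, and govern their stability and translation. In blood, FOXO activity helps stem cells to stay quiescent, whereas signaling through AKT and mTOR accompanies their entry into cycle.

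LT-HSC and HPC-1 of the same agent and genotype were compared first. Of the 8 genes, Igf1, Igf1r, Insr, Irs1, Irs2 and Igf2bp2 were higher in LT-HSC, Igfbp4 was higher in HPC-1 and Igf2bp3 did not pass the test (edgeR quasi-likelihood fit, p adjusted over all genes, mean over 5 strata of agent and genotype). The 7 calls stand against 6543 of 18013 genes called (36.3%), 3220 of them higher in LT-HSC (17.9%, against 6 members) and 3323 higher in HPC-1 (18.4%, against 1 member). Igf1 and Irs1 passed the filter on low counts in the fit of LT-HSC alone but not in that of HPC-1 alone. For such genes the filter itself favors a call higher in LT-HSC, so their calls are not read as support. DESeq2 called 6795 genes and 7 members, and without the 3 libraries that stood apart edgeR called 6926 genes and 6 members, Irs1 then falling under the filter on low counts. Over the libraries left out in turn, 6 or 7 members were called. PBS WT entered no stratum because it has a single LT-HSC library.

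Igf1, the ligand (ENSMUSG00000020053, mm10 chr10:87858265-87937042, plus strand), was read at 0, 4.75 and 13.7 CPM (lowest, median and highest) in LT-HSC and at 0, 0.456 and 3.46 CPM in HPC-1. It was low in both cell types, and 11 of 17 LT-HSC libraries lay above all HPC-1 libraries. LT-HSC held 380 Igf1 counts in all, with 16 of 17 libraries above the floor, whereas HPC-1 held 65 counts and 9 of 19 libraries held none. The difference was 2.44 ± 0.566 (SE) on the log2 scale, 5.43-fold (edgeR adjusted p = 4.32e-04), and 2.58 ± 0.583 without the 3 libraries that stood apart (adjusted p = 2.42e-04). In the main fit it had the same direction in each stratum, from 1.97 ± 1.17 in PBS het to 2.84 ± 1.22 in PBS KO. With libraries left out in turn the mean over strata reached 3.41. The Ang II WT stratum then ran from -3.57 to 5.85, with its sign turned at the lower end. At both ends a group was left without Igf1 counts, so these values are no sizes. The call rested in part on replicate 1 of LT-HSC Ang II WT. Without it that group held no Igf1 count, and the fitted difference was 1.26 with an adjusted p of 1. The other 41 of 42 alternatives kept the call. Of 10 macrophage markers 3 had lower medians in LT-HSC than in HPC-1 and 7 higher ones, and of 9 stroma markers 2 had lower and 4 higher ones. The part of such cells in the Igf1 difference was not tested. An antisense gene, Igf1os, overlaps Igf1. It had a median of 0 CPM in both cell types and reached 2.54 CPM in LT-HSC and 1.32 CPM in HPC-1, and whether counting used the strand is not given in the sources used here.

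Igf1r, the receptor for IGF1 (ENSMUSG00000005533, mm10 chr7:67952827-68233668, plus strand), was read at 162, 221 and 300.2 CPM in LT-HSC and at 84.2, 146 and 210 CPM in HPC-1. It was abundant in every library, and 10 of 17 LT-HSC libraries lay above all HPC-1 libraries. The difference was 0.55 ± 0.0905 (SE) on the log2 scale, 1.46-fold (edgeR adjusted p = 5.29e-06), and 0.60 ± 0.0869 without the 3 libraries that stood apart (adjusted p = 3.35e-07), when 18 of 19 HPC-1 libraries lay below all LT-HSC libraries. By stratum it ran from 0.21 ± 0.233 in Ang II WT to 0.78 ± 0.18 in Ang II het. Insr, the insulin receptor (ENSMUSG00000005534, mm10 chr8:3122061-3279617, minus strand), was read at 94.5, 144 and 166 CPM in LT-HSC and at 74.3, 105 and 154 CPM in HPC-1. The ranges overlapped more than those of Igf1r, with 4 LT-HSC libraries above all HPC-1 libraries. Insr differed by 0.36 ± 0.0943 (SE) on the log2 scale, 1.28-fold (edgeR adjusted p = 0.00219), and by 0.42 ± 0.0892 without the 3 libraries (adjusted p = 1.42e-04). Both receptor calls held under all 42 alternatives.

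Irs2, a docking protein of both receptors (ENSMUSG00000038894, mm10 chr8:10984681-11008458, minus strand), was read at 12.04, 23.1 and 36.6 CPM in LT-HSC and at 4.09, 10.96 and 22.5 CPM in HPC-1. LT-HSC held more of it, and 9 of 17 LT-HSC libraries lay above all HPC-1 libraries. The difference was 0.84 ± 0.196 (SE) on the log2 scale, 1.79-fold (edgeR adjusted p = 6.35e-04), and 0.89 ± 0.205 without the 3 libraries (adjusted p = 4.20e-04). Strata ranged widely for Irs2, from -0.05 ± 0.517 in Ang II WT and 0.45 ± 0.447 in PBS het to 1.31 ± 0.384 in Ang II KO and 1.46 ± 0.446 in PBS KO. Irs1, its close relative (ENSMUSG00000055980, mm10 chr1:82233101-82291416, minus strand), was read at 0, 0.839 and 8.56 CPM in LT-HSC and at 0, 0 and 1.18 CPM in HPC-1. It was near the floor, with 85 counts over 17 LT-HSC libraries and 16 counts over 19 HPC-1 libraries, 13 of which held none. The edgeR adjusted p of Irs1 was 0.0154, and no fold is given because all HPC-1 Ang II WT libraries held 0 counts. The call was lost without replicate 2 of LT-HSC Ang II WT (fitted log2 difference 1.55), and Irs1 fell under the filter without the 3 libraries that stood apart. Short antisense genes overlap Insr, Irs1 and Irs2 (Gm16180, Gm9747 and 9530052E02Rik). Each had a median of 0 CPM in both cell types.

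Igfbp4, a secreted protein that binds IGF1 and IGF2 (ENSMUSG00000017493, mm10 chr11:99041244-99054392, plus strand), was read at 89.1, 113 and 445 CPM in LT-HSC and at 302, 437 and 577 CPM in HPC-1. It ran opposite to the 6 members that were higher in LT-HSC, and 16 of 17 LT-HSC libraries lay below all HPC-1 libraries. The exception was replicate 2 of LT-HSC PBS KO at 445 CPM, the library with progenitor markers. The other LT-HSC libraries reached 144 CPM at most. Igfbp4 differed by -1.72 ± 0.128 (SE) on the log2 scale (edgeR adjusted p = 4.13e-11), and by -1.90 ± 0.0819 without the 3 libraries that stood apart (adjusted p = 1.54e-19). In PBS KO, the stratum of that replicate, the difference was -0.77 ± 0.292 with the 3 libraries and -1.64 ± 0.202 without them. Libraries left out in turn gave -1.89 to -1.62, and the call held under all 42 alternatives.

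Igf2bp2, an mRNA-binding protein (ENSMUSG00000033581, mm10 chr16:22059009-22163299, minus strand), was read at 2.07, 13.2 and 36.6 CPM in LT-HSC and at 0, 2.02 and 4.34 CPM in HPC-1. In 16 of 17 LT-HSC libraries it lay above all HPC-1 libraries. Replicate 2 of LT-HSC PBS KO, at 2.07 CPM, was the exception here too, and without the 3 libraries that stood apart the cell types did not overlap. The difference was 2.85 ± 0.35 (SE) on the log2 scale, 7.20-fold (edgeR adjusted p = 2.58e-08), and 2.99 ± 0.34 without the 3 libraries (adjusted p = 2.66e-09). By stratum it ran from 2.15 ± 0.78 in PBS KO to 4.41 ± 0.918 in Ang II WT, and the call held under all 42 alternatives. Igf2bp3 (ENSMUSG00000029814, mm10 chr6:49085223-49214957, minus strand) was read at 0, 0.374 and 3.36 CPM in LT-HSC and at 0, 0.290 and 2.16 CPM in HPC-1, and 8 LT-HSC and 9 HPC-1 libraries held no count of it. The ranges overlapped, with 2 LT-HSC libraries above all HPC-1 libraries. The edgeR adjusted p was 0.933, and no fold is given because both LT-HSC Ang II WT libraries held 0 counts. The sign of the fitted value changed between alternatives, and a difference was not detectable at this depth. Malsu1, read at a median of 14.9 CPM in LT-HSC and 15.9 CPM in HPC-1, overlaps Igf2bp3 on the other strand, so some of the few Igf2bp3 counts cannot be assigned with certainty. How reads shared by the related Igf2bp2 and Igf2bp3 were divided cannot be seen in the deposited table.

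**Figure D1:**
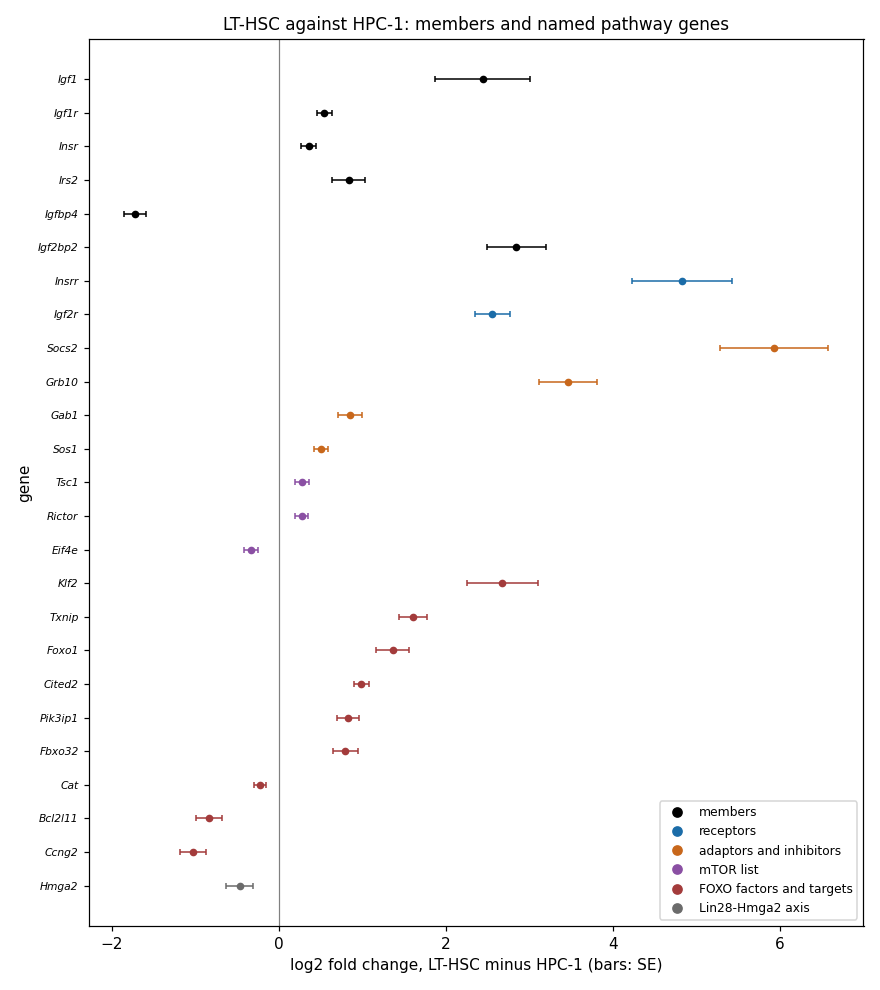
Log2 fold change of LT-HSC minus HPC-1 (x axis) for the members and for named genes of the pathway lists other than PI3K-AKT (y axis), with bars of 1 SE from the edgeR fit over 36 libraries. Igf1 (2.44) and Igf2bp2 (2.85) lie to the right and Igfbp4 (-1.72) to the left, and Irs1, Igf2bp3 and Igf2, each with a group at 0 counts, are not drawn.

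Compared per kilobase of exon, Igfbp4 was the most abundant member in both cell types, with mean levels of 29.8 CPM per kb in LT-HSC and 98.5 CPM per kb in HPC-1. Igf1r (13.0 and 8.88 CPM per kb) and Insr (10.04 and 7.78 CPM per kb) followed. Irs2 was next with 3.54 and 1.78 CPM per kb, then Igf2bp2 with 2.15 and 0.305 CPM per kb. Igf1 (0.563 and 0.0865 CPM per kb), Irs1 (0.1502 and 0.0219 CPM per kb) and Igf2bp3 (0.110 and 0.0728 CPM per kb) lay lowest. Receptor transcripts were thus far more abundant per kb than the ligand transcript in both populations. Among the 12 group means, the 6 LT-HSC groups took the top 6 places for Igf1, Igf1r, Insr, Irs1 and Igf2bp2, 5 of the top 6 for Irs2, 4 for Igf2bp3 and 0 for Igfbp4. Neighbours in that order overlapped in 11 of 11 cases for each member but Igf2bp2, with 8 of 11.

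**Figure D2:**
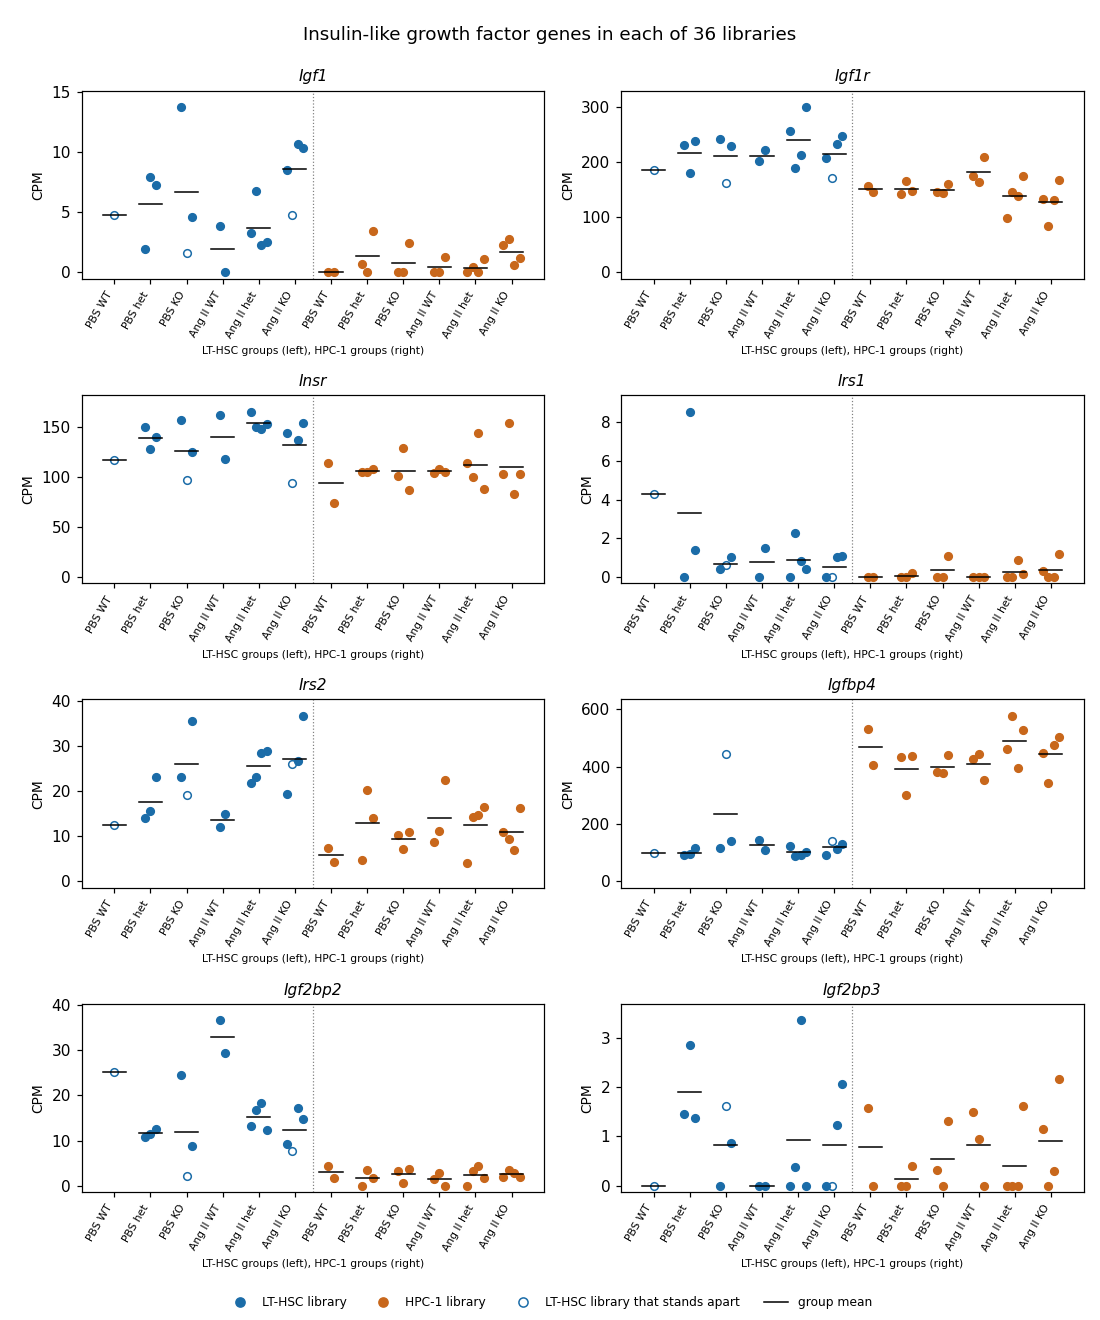
TMM-normalized CPM (y axis) of each of the 8 genes, with 1 panel per gene and the 12 groups on the x axis. Points are libraries, open circles mark the 3 libraries that stood apart and black lines are group means. LT-HSC libraries lie above HPC-1 libraries for Igf2bp2 and below them for Igfbp4, but for an open circle in PBS KO at 2.07 and 445 CPM.

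The rest of the pathway was read through 79 further genes in 8 lists, where the median log2 difference over all genes tested was 0.03 and 36.3% were called, 17.9% higher and 18.4% lower in LT-HSC. Of 8 other ligands and their processing factors 5 were tested and 1, Igf2, was called, with a list median of 1.14 whether the 4 genes with a group at 0 counts were taken as fitted or at their bound. Igf2, the second growth factor of the family, was read at 0, 3.01 and 9.95 CPM in LT-HSC, and 14 of 19 HPC-1 libraries held none (edgeR adjusted p = 5.43e-07). In 15 of 17 LT-HSC libraries it lay above all HPC-1 libraries. Insulin itself was all but absent, with 2 counts of Ins1 and 0 of Ins2 over the 17 LT-HSC libraries, and neither entered the test. Both other receptors were higher in LT-HSC (list median 3.69). Igf2r, which binds IGF2 and carries it to lysosomes, had medians of 53.1 CPM in LT-HSC and 7.36 CPM in HPC-1 and differed by 2.56 ± 0.210 on the log2 scale (edgeR adjusted p = 6.50e-11). Insrr, a receptor of the insulin receptor family, had medians of 14.6 and 0.290 CPM and differed by 4.83 ± 0.603 (edgeR adjusted p = 1.74e-08). Without replicate 1 of LT-HSC Ang II WT an LT-HSC group held no Insrr, the fitted value was 3.16 and the adjusted p was 1. Of 6 other binding proteins 3 passed the filter and 0 were called, with a list median of 0.33, or 0.34 with the 2 genes that have a group at 0 taken at their bound. Those outside the test were Igfbp2 (6 counts in LT-HSC and 2 in HPC-1), Igfbp6 (2 and 7) and Igfbp7 (26 and 69), all far below the 9935 and 28163 counts of Igfbp4, although their lengths differ.

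At the receptor, 4 of 14 adaptors and inhibitors rose in LT-HSC relative to HPC-1 and 0 fell, against 17.9% and 18.4% of all genes (list median 0.47, or 0.68 with the gene that has a group at 0 at its bound). Socs2, a suppressor of cytokine and growth hormone signaling, had medians of 18.3 CPM in LT-HSC and 0 CPM in HPC-1 and differed by 5.93 ± 0.649 on the log2 scale (edgeR adjusted p = 4.47e-11). Grb10, an adaptor that restrains the insulin and IGF1 receptors, had medians of 155 and 14.3 CPM and differed by 3.46 ± 0.346 (edgeR adjusted p = 3.75e-08). Each of these inhibitors lay above all HPC-1 libraries in 16 of 17 LT-HSC libraries. The adaptor Gab1 differed by 0.85 ± 0.148 and the Ras exchange factor Sos1 by 0.51 ± 0.0839. Downstream the lists were mixed. Among 16 PI3K-AKT genes 5 were higher and 3 lower in LT-HSC, against the same 17.9% and 18.4%, with a list median of -0.0048. Phlpp1, a phosphatase that turns AKT off, rose by 1.30 ± 0.173 and the PI3K subunit Pik3r1 by 0.39 ± 0.0873, whereas the subunit Pik3r2 fell by 0.65 on the log2 scale (SE 0.103). Phlpp2 differed by 0.39 ± 0.116 and Akt2 by 0.23 ± 0.0865. Leaving out replicate 2 of LT-HSC Ang II WT ended the calls of Phlpp2 (0.25) and Akt2 (0.22), and Akt2 was lost too without replicate 1 of LT-HSC PBS KO (0.22) or of LT-HSC PBS het (0.19), with all 6 strata (0.15) and without a filter (0.23). Inpp5d, a phosphatase of the PI3K product, was called at -0.23 ± 0.0782, but leaving out any of 6 libraries ended the call, as did DESeq2 (-0.16), upper-quartile scaling (-0.18) and no filter (-0.24). Without replicate 1 of HPC-1 PBS het it stood at -0.17. Of 12 genes in the mTOR list 3 were called, against 36.3% over all genes, with a list median of -0.05. Rictor, a subunit of mTOR complex 2, was higher (0.28 ± 0.0806), as was Tsc1, an inhibitor of complex 1 (0.28 ± 0.0864), and the cap-binding factor Eif4e was lower (-0.33 ± 0.0811).

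FOXO factors and genes known as their targets had 11 of 16 members called, 8 higher and 3 lower in LT-HSC (list median 0.36), against 17.9% higher and 18.4% lower over all genes. Foxo1 had medians of 32.8 CPM in LT-HSC and 12.9 CPM in HPC-1 and differed by 1.37 ± 0.198 on the log2 scale (edgeR adjusted p = 5.85e-07). Txnip, which binds thioredoxin and limits glucose uptake, had medians of 871 and 273 CPM and rose by 1.61 ± 0.168 (edgeR adjusted p = 3.21e-08). Cited2, a transcriptional co-regulator needed by stem cells, had medians of 176 and 86.9 CPM and rose by 0.99 ± 0.0845. Pik3ip1, an inhibitor of PI3K, rose by 0.83 ± 0.128, the transcription factor Klf2 by 2.68 ± 0.425 and the ubiquitin ligase subunit Fbxo32 by 0.80 ± 0.149. The 3 lower genes follow. Ccng2, an atypical cyclin, differed by -1.03 ± 0.151, the pro-apoptotic Bcl2l11 by -0.83 ± 0.159 and catalase (Cat) by -0.22 ± 0.0771. The Ccng2 mean leaned on Ang II WT, where alternatives gave -3.55 to -2.20, against -1.29 to -0.81 in PBS het, -0.90 to -0.39 in Ang II het, -0.51 to -0.31 in Ang II KO and -0.52 to -0.15 in PBS KO. The Cat call ended when any of 9 libraries was left out, reaching -0.13 without replicate 1 of HPC-1 PBS het. It was lost too by DESeq2 (-0.15), with upper-quartile scaling (-0.17), with the Y-linked covariate (-0.18) and without a filter (-0.23). Of 5 genes in the list of the Lin28, let-7 and Hmga2 axis, 1 was called, Hmga2, at -0.46 ± 0.162. The list median was 0.50, or 0.80 with the 3 genes that have a group at 0 at their bound. Leaving out any of 4 libraries ended the Hmga2 call, which reached -0.33 without replicate 1 of HPC-1 PBS het, and it was lost with all 6 strata (-0.30) and without a filter (-0.47).

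The genotypes were compared within each cell type and agent, the comparison from which the members were taken. Under Ang II in LT-HSC, KO minus WT called 277 of 16365 genes (1.69%), 185 higher and 92 lower, and het minus WT called 136 genes (0.831%). The first count was 98 without KO replicate 3, and the second was 53 without het replicate 4. They were 32 and 37 with the compared groups fitted alone, and 777 and 377 without the 3 libraries that stood apart. DESeq2 called 780 and 437 genes, and 2896 and 2563 genes had an unadjusted p under 0.05. The count of members called was 0 of 7 in both by either tool, and nothing is read from it because these comparisons chose the members. KO minus het called 0 of 16365 genes (0%) under Ang II, with 426 at an unadjusted p under 0.05 and 2 by DESeq2, and 0 genes (0%) under PBS, with 653 and 1. Members called were 0 in both by either tool. Igf2bp3 fell under the filter in LT-HSC. The WT group under Ang II has 2 libraries, and both carried the high intestinal marker sums of 198 and 222 CPM against at most 13.7 CPM in het and KO. These WT libraries held 2244419 and 2077699 counts, against 2183648 to 6861078 in Ang II het and 2320769 to 6618618 in Ang II KO. Depth thus went in part with the genotype label, and its part in differences from WT was not tested. The library labelled PBS WT entered no fold.

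In LT-HSC under Ang II, Igf1 was read at 8.51, 4.75, 10.6 and 10.3 CPM in KO, at 3.30, 6.74, 2.31 and 2.52 CPM in het and at 3.85 and 0 CPM in WT. The highest levels were in KO, all 4 KO libraries lay above both WT libraries, and het overlapped both other genotypes. Macrophage marker sums were lowest in WT as well, at 7.70 and 9.95 CPM in WT, 16.0 to 38.1 CPM in het and 23.7, 149, 23.3 and 26.0 CPM in KO. The sum of 149 CPM was that of KO replicate 2, which stood apart, and the other KO sums lay inside the het range. The part of macrophage markers in Igf1 was not tested. The log2 difference was 2.14 ± 0.998 (SE) for KO minus WT, 0.90 ± 1.01 for het minus WT and 1.24 ± 0.713 for KO minus het. The 2 WT libraries held 8 Igf1 counts together, and without replicate 1 the WT group held none, so that the fitted values of 8.15 for KO minus WT and 6.90 for het minus WT have no meaning as sizes. Without WT replicate 2 these differences were 1.16 and -0.085, the second with its sign turned. KO minus het was 0.42 in the shallower libraries. Under PBS Igf1 was read at 13.7, 1.62 and 4.59 CPM in KO, at 1.94, 7.92 and 7.26 CPM in het and at 4.76 CPM in the library labelled PBS WT. Here the genotypes overlapped fully, with a KO minus het difference of 0.13 ± 0.813, or 0.57 ± 0.792 without the 3 libraries that stood apart, and from -0.92 to 0.61 with libraries left out in turn. In HPC-1 Igf1 was at 2.78 CPM or less under Ang II and at 3.46 CPM or less under PBS, too low for the test. The floor of 3 counts was reached in 3 of 4 Ang II KO, 1 of 3 Ang II WT and 1 of 4 Ang II het libraries. Under PBS it was reached in het replicate 3 (17 counts) and KO replicate 3 (11 counts) and in no other library.

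Igf2bp2 in LT-HSC under Ang II was read at 36.6 and 29.4 CPM in WT, at 13.2, 16.8, 18.3 and 12.2 CPM in het and at 9.25, 7.77, 17.2 and 14.9 CPM in KO. Both WT libraries lay above all het and KO libraries, and het and KO overlapped. The log2 difference was -1.40 ± 0.569 (SE) for KO minus WT, -1.11 ± 0.567 for het minus WT and -0.28 ± 0.469 for KO minus het, and the first was -1.26 ± 0.402 without the 3 libraries that stood apart. The library labelled PBS WT, at 25.2 CPM, was also higher than the PBS het libraries at 10.7, 11.4 and 12.6 CPM and than the PBS KO libraries at 24.4, 2.07 and 8.89 CPM. In HPC-1 Igf2bp2 was at 4.34 CPM or less, the genotypes overlapped, and the KO minus WT difference under Ang II was 0.76 ± 1.18, from 0.23 to 1.64 with libraries left out in turn. Irs2 ran the other way in LT-HSC under Ang II, at 12.04 and 14.9 CPM in WT, 21.7, 23.2, 28.3 and 28.8 CPM in het and 19.2, 25.9, 26.6 and 36.6 CPM in KO. Both WT libraries lay below all het and KO libraries. Irs2 differed by 1.02 ± 0.34 for KO minus WT, by 0.93 ± 0.34 for het minus WT and by 0.09 ± 0.262 for KO minus het. Under PBS it was read at 12.4 CPM in the library labelled PBS WT, at 14.1, 15.5 and 23.2 CPM in het and at 23.1, 19.04 and 35.6 CPM in KO, with a KO minus het difference of 0.54 ± 0.305. It was 0.24 without replicate 3 of KO (35.6 CPM), the library rich in granulocyte and erythroid markers, and was 0.77 without replicate 3 of het. The WT libraries behind these folds held 198 and 222 CPM of intestinal and 7.70 and 9.95 CPM of macrophage markers, and the part of these in the differences was not tested. Both were also shallow, at 2244419 and 2077699 counts, and the part of depth was not tested either.

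Igf1r and Insr were next compared between genotypes of LT-HSC. Under Ang II Igf1r was read at 202 and 221 CPM in WT, from 191 to 300.2 CPM in het and from 172 to 247 CPM in KO, with differences of 0.04 ± 0.205 for KO minus WT and 0.19 ± 0.205 for het minus WT. Insr was at 163 and 118 CPM in WT, from 148.7 to 166 CPM in het and from 94.5 to 155 CPM in KO, with differences of -0.07 ± 0.209 and 0.14 ± 0.209. The genotypes overlapped for both receptors, and these 4 differences were smaller than their SE. With libraries left out in turn, Insr ran from -0.29 to 0.18 for KO minus WT and from -0.07 to 0.40 for het minus WT. KO minus het was -0.15 ± 0.166 for Igf1r and -0.22 ± 0.169 for Insr under Ang II, and -0.04 ± 0.192 and -0.14 ± 0.196 under PBS. Igfbp4 under Ang II was at 144 and 109 CPM in WT, from 89.1 to 123 CPM in het and from 91.7 to 139 CPM in KO, with a KO minus WT difference of -0.07 ± 0.406. Under PBS it was read at 115, 445 and 140.5 CPM in KO and at 90.8, 95.4 and 114 CPM in het. The KO minus het difference of 1.22 ± 0.379 came with replicate 2 of PBS KO, the library with progenitor markers, and was 0.33 ± 0.193 without the 3 libraries that stood apart and 0.34 without that replicate alone. Irs1 stood between 0 and 2.25 CPM in LT-HSC under Ang II and between 0 and 8.56 CPM under PBS. Its differences, among them -2.23 ± 1.498 for KO minus het under PBS, had errors too wide to order the genotypes. Igf2bp3 reached 3.36 CPM in Ang II het and was at 0 in both Ang II WT libraries.

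In HPC-1, where Il27ra did not separate the genotype labels, 5 members were tested (Igf1, Irs1 and Igf2bp3 fell under the filter). edgeR called 0 members in each comparison, from which again nothing is read. Under Ang II it called 0 of 13199 genes (0%) in KO minus WT, 0 (0%) in het minus WT and 0 (0%) in KO minus het, against 661, 975 and 375 at an unadjusted p under 0.05 and 2, 2 and 0 by DESeq2. Under PBS it called 2 genes (0.0152%) in KO minus WT, 0 (0%) in het minus WT and 0 (0%) in KO minus het, against 865, 631 and 151 unadjusted and 14, 6 and 0 by DESeq2. DESeq2 called 0 members as well. Igf1r under Ang II was read at 175, 164 and 210 CPM in WT, at 98.7, 146, 139 and 174 CPM in het and at 133, 84.2, 131 and 167 CPM in KO. WT libraries were the higher, although the highest het and KO libraries reached into their range. The differences were -0.54 ± 0.193 (SE) for KO minus WT and -0.42 ± 0.194 for het minus WT, and with libraries left out in turn they ran from -0.68 to -0.39 and from -0.52 to -0.25. Without WT replicate 3 (210 CPM) they were -0.42 and -0.30. That library held 202 CPM of intestinal markers and the other HPC-1 libraries labelled WT 37.4 to 43.1 CPM, against at most 32.3 CPM in het and KO, and the part of these was not tested. Under PBS Igf1r lay between 143 and 166 CPM in all 8 libraries, with a KO minus WT difference of -0.01 ± 0.231. Irs2 under PBS was at 7.48 and 4.20 CPM in WT, at 4.63, 20.2 and 14.0 CPM in het and at 10.2, 7.08 and 10.99 CPM in KO, with differences of 1.15 ± 0.647 for het minus WT and 0.69 ± 0.651 for KO minus WT. With libraries left out in turn these ran from 0.70 to 1.62 and from 0.35 to 1.16. Igfbp4 spanned 302 to 577 CPM over the HPC-1 libraries, with genotype differences between -0.26 ± 0.202 and 0.24 ± 0.169, and Insr differed by at most 0.18 ± 0.257. With libraries left out in turn, het minus WT under PBS ran from -0.42 to -0.05 for Igfbp4 and from -0.09 to 0.52 for Insr.

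**Figure D3:**
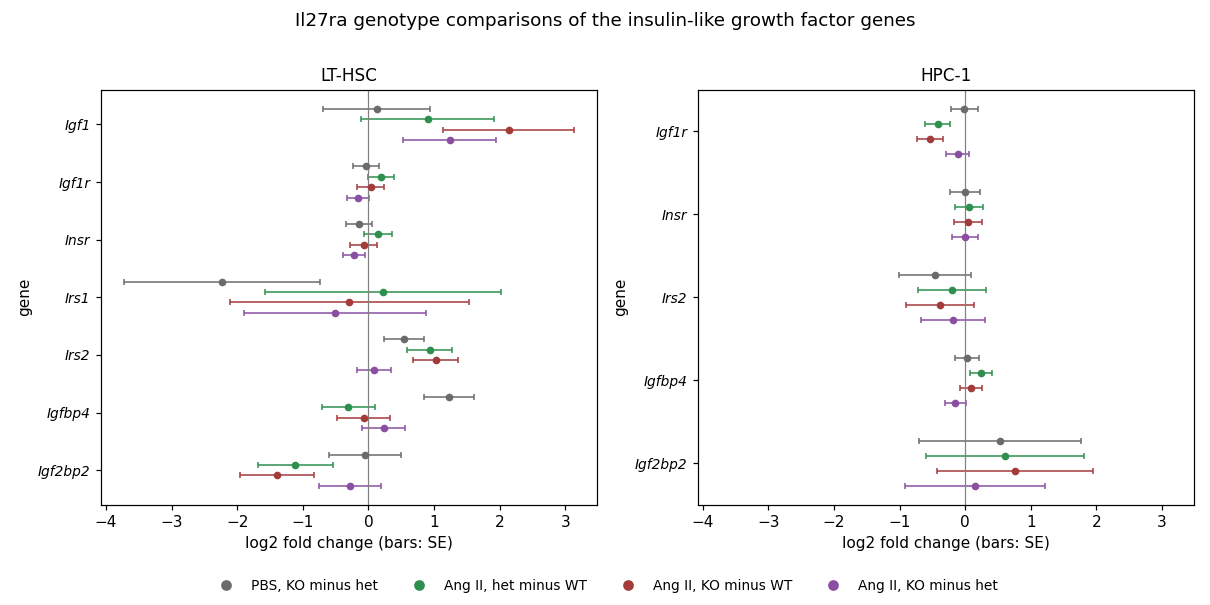
Log2 fold change between genotypes (x axis) of the members tested (y axis) in LT-HSC (7 members) and HPC-1 (5 members), for PBS KO minus het, Ang II het minus WT, Ang II KO minus WT and Ang II KO minus het. Bars are 1 SE from the edgeR fit within a cell type. Under Ang II in LT-HSC, Igf1 (2.14) and Irs2 (1.02) lie to the right and Igf2bp2 (-1.40) to the left for KO minus WT, and no point was called.

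Among the 79 pathway genes, 2 were called in a genotype comparison, both in LT-HSC under Ang II, against 1.69% of all genes in KO minus WT and 0.831% in het minus WT there. Nothing is read from that count. The lists were written with earlier results of these data known, so the genotype p values given here are not independent evidence. Ccng2 was read at 2.89 and 7.47 CPM in WT, at 44.3, 21.3, 33.1 and 27.6 CPM in het and at 34.4, 34.1, 25.8 and 34.4 CPM in KO. Both WT libraries were far below all others, and the library labelled PBS WT, at 34.7 CPM, was not low. Ccng2 rose by 2.65 ± 0.389 on the log2 scale in KO minus WT (edgeR adjusted p = 0.00257) and by 2.61 ± 0.389 in het minus WT (adjusted p = 0.00356). Without the 3 libraries that stood apart the former was 2.59 ± 0.411 (adjusted p = 0.00341). Fitted on the compared groups alone, both calls were lost, at 2.62 and 2.59, and adjusted p ran from 2.43e-07 to 0.0614 and from 9.17e-07 to 0.0624 over the alternatives. The het minus WT call was also lost in the shallower libraries, at 2.66. Pdpk1, the kinase that activates AKT, was read at 68.9 and 49.3 CPM in WT and at 105, 115, 91.0 and 86.1 CPM in KO. In het it was at 92.9, 80.1, 86.4 and 85.6 CPM, above both WT libraries and overlapping KO. The library labelled PBS WT held 94.6 CPM. In KO minus WT Pdpk1 differed by 0.76 ± 0.186 (edgeR adjusted p = 0.0479). Its call was lost in 10 of 15 alternatives, with adjusted p from 0.00942 to 0.242. It was lost when any KO replicate was left out (0.73, 0.67, 0.79 and 0.81 without replicates 1 to 4) or replicate 2 of WT (0.53). These WT libraries held 198 and 222 CPM of intestinal and 7.70 and 9.95 CPM of macrophage markers, whose part was not tested.

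Ang II was compared with PBS within cell type and genotype. edgeR called 0 members and 0 genes in each of the 5 comparisons. DESeq2 also called 0 members, and at an unadjusted p under 0.05 there was 1 member in LT-HSC KO and 0 in the others. In LT-HSC the counts were 0 of 16365 (0%) in het, with 806 at an unadjusted p under 0.05 and 0 by DESeq2, and 0 of 16365 (0%) in KO, with 150 and 1. In HPC-1 they were 0 of 13199 (0%) in WT, het and KO alike, with 420, 519 and 244 at an unadjusted p under 0.05 and 1, 4 and 1 by DESeq2. Igf1 in LT-HSC differed by -0.69 ± 0.779 (SE) on the log2 scale in het and by 0.42 ± 0.75 in KO. With libraries left out in turn the former ran from -1.14 to -0.40 and the latter from -0.06 to 1.47. Over all alternatives the former reached -0.025. Igf1r differed by 0.13 ± 0.18 and 0.02 ± 0.18, and Irs2 by 0.51 ± 0.287 and 0.06 ± 0.281. Igfbp4 differed by -0.99 ± 0.353 in KO. Without the 3 libraries that stood apart the value was -0.21 ± 0.192, since replicate 2 of PBS KO was among them. In HPC-1 the widest difference relative to its SE was that of Irs2 in WT, at 1.29 ± 0.649, from 7.48 and 4.20 CPM under PBS to 8.68, 11.1 and 22.5 CPM under Ang II. It ran from 0.77 without replicate 3 of Ang II WT, the library with 202 CPM of intestinal markers, to 1.73 without replicate 1 of PBS WT. Igf1r in HPC-1 differed by 0.30 ± 0.231 in WT, -0.13 ± 0.194 in het and -0.23 ± 0.193 in KO, and Igfbp4 by -0.18 ± 0.202, 0.32 ± 0.169 and 0.14 ± 0.169. The het values ran from -0.25 to 0.015 for Igf1r and from 0.16 to 0.41 for Igfbp4 with libraries left out in turn.

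Whether effects differed between cell types or genotypes was tested directly in 4 interactions, each over 18013 genes and 8 members. The KO minus WT effect under Ang II in LT-HSC minus that in HPC-1 gave 9 genes (0.05%) and 0 members by edgeR, with 1776 genes at an unadjusted p under 0.05 and 58 by DESeq2. For Irs2 this difference of effects was 1.36 ± 0.644 (SE), for Igf1r 0.53 ± 0.294, for Igf2bp2 -2.15 ± 1.14 and for Igf1 0.06 ± 1.93. With libraries left out in turn these ran from 0.85 (without HPC-1 Ang II WT replicate 3) to 1.63, from 0.35 to 0.69, from -3.01 to -1.65 and from -3.53 to 5.88, the last at ends where a WT group was left with 0 Igf1 counts. The Ang II minus PBS effect in KO minus that in het gave 0 genes (0%) and 0 members in LT-HSC, with 572 unadjusted and 0 by DESeq2, and 0 genes (0%) and 0 members in HPC-1, with 411 and 0. In LT-HSC Igfbp4 had a difference of -0.998 ± 0.391 there, or -0.19 ± 0.265 without the 3 libraries that stood apart. The LT-HSC minus HPC-1 difference under Ang II minus that under PBS in het gave 0 genes (0%) and 0 members, with 546 genes and 0 members unadjusted and 0 of each by DESeq2. The first 3 interactions use the genotype values by which the members were chosen, so nothing is read from their counts of members.

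The genes with the pattern most like that of Igf1 over the 36 libraries, of 17722 others, were Pclo (Spearman 0.904), Myo15 (0.895), Sema6d (0.878), Bmp4 (0.872) and Veph1 (0.867). Each was higher in LT-HSC. Medians in LT-HSC and HPC-1 were 47.0 and 1.94 CPM for Pclo, 2.25 and 0 CPM for Myo15 and 4.62 and 0.197 CPM for Sema6d. Those of Bmp4 were 5.24 and 0 CPM, and those of Veph1 4.76 and 0 CPM. Within LT-HSC (n = 17) the coefficients were 0.828, 0.674, 0.813, 0.681 and 0.897, and within HPC-1 (n = 19) 0.851, 0.820, 0.735, 0.608 and 0.549. Igf1 held no count in 9 of 19 HPC-1 libraries, so the HPC-1 coefficients rest largely on counts at or near 0. Most like Igf1r were Ski (0.907), Mical3 (0.888), Trpc6 (0.884), Soga1 (0.875) and Wdfy3 (0.872). Their coefficients were 0.623, 0.593, 0.706, 0.605 and 0.757 within LT-HSC and 0.761, 0.691, 0.653, 0.660 and 0.414 within HPC-1. Libraries share their cell type and depth in these coefficients, which are a description. Pearson correlation kept 3 of 5 genes for Igf1 and 1 of 5 for Igf1r. The top 5 within LT-HSC kept 1 and 0 of them, and within HPC-1 0 and 0.

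Promoters are shown for Igf1r, Igf2bp2 and Igfbp4, members with clear differences between LT-HSC and HPC-1 in both directions. RefSeq (GRCm38.p6) gave a promoter for 7 of 8 members, without Insr, and the 250 bases before the RefSeq start are printed 5′ to 3′ on the strand of the gene. None of these 3 windows overlaps an annotated exon. The windows lie at chr7:67952007-67952256 (plus strand) for Igf1r, chr16:22163300-22163549 (minus strand) for Igf2bp2 and chr11:99040994-99041243 (plus strand) for Igfbp4. The Igf1r window does not reach the gene start given above (67952827), so the bases just before that start were not searched. Capitals mark matches to 5 motifs, searched on both strands. The GC box, spelled GGGCGG, occurs in 32.7% of 32851 promoters of the same length. The CCAAT box, named by its letters, occurs in 33.8% of them. The TATA box was searched as TATAAA and occurs in 12.4% of these promoters. The E-box, with the letters CACGTG here, occurs in 6.02% of all promoters searched. The FOXO core was taken as GTAAACA and occurs in 3.17% of them.
Igf1r: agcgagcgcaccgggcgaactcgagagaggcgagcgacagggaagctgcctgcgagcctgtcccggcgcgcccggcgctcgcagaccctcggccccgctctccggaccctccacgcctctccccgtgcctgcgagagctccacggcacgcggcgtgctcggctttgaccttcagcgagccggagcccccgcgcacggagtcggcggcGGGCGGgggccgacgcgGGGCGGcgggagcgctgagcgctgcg
Igf2bp2: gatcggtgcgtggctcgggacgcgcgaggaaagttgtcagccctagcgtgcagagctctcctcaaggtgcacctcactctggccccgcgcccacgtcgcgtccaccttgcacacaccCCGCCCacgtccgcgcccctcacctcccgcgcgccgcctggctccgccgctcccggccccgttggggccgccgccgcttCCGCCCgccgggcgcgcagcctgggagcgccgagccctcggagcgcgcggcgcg
Igfbp4: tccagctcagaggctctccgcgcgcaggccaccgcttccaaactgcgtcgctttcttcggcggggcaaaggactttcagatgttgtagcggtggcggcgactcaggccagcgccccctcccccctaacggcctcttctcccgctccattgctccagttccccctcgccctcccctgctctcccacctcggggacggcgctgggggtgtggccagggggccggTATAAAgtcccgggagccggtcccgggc

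The Igf1r and Igf2bp2 windows held 2 GC boxes each, those of Igf2bp2 on the strand opposite to the gene, and no TATA box. The Igfbp4 window held 1 TATA box and no GC box. GC content was 77.6% for Igf1r, 77.2% for Igf2bp2 and 69.2% for Igfbp4, against a median of 52.4% over all promoters. None of the 3 windows held a CCAAT box, an E-box or a FOXO core, which says only that these letters are not in the window.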

How the data were processed

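The authors made stranded total RNA libraries from sorted cells and deposited RSEM expected counts per Ensembl gene (mm10) in whole numbers. The paper's methods name STAR as the aligner and the submitters' processing notes name Bowtie2 with RSEM 1.2.31, so the aligner is uncertain. The table holds 38887 genes in 36 libraries. Symbols and positions came from gencode vM21 for 37570 identifiers, 99.63% of counts.

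Counts were tested with edgeR 4.0.16 (R 4.3.3, filterByExpr, TMM, robust glmQLFit, glmQLFTest) and adjusted by Benjamini-Hochberg over all genes, with adjusted p under 0.05 as a call. Genotype and agent effects came from a fit of 6 groups, separately for LT-HSC and HPC-1. Cell types and interactions came from a joint fit of all 12 groups. SE values are Wald errors of that fit. log2 CPM used a prior count of 2. Steps were tested on simulated data. Alternatives were DESeq2 1.42.0, upper-quartile scaling, other filters, compared groups alone, a replicate block, Y-linked expression as a covariate because sex is not labelled, the shallower libraries alone, all 6 strata, each replicate left out, and 3 libraries set aside.

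The members and lists were chosen with earlier results of these data known. Named genes were all members, up to 6 called genes of a pathway list per direction for cell type, up to 5 for other comparisons, and the 5 genes most correlated with Igf1 and Igf1r. Of these, 2 genes are not reported here. Replicate pairs (41) differed by chi-square values of 4.03 to 56.7 per gene, so no library was counted as a duplicate.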

Additional observations from a re-analysis of the deposited data

Results flagged for a closer look

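A library was singled out where its distance to the nearest other library of a group of 4 took up most of the range of that group on the log2 scale. Of 76 values compared, 8 stood out, and chance gives about 1 in 20. Irs2 in HPC-1 Ang II het was lowest in replicate 1, at 4.09 CPM against 14.1 to 16.5 CPM, with a gap of 0.887 of the range. Igf2bp3 in the same group was highest in replicate 4, at 1.61 CPM against 0 in the other 3, a gap of 1.000. Any count in a single library gives that gap when the others hold none, so nothing is read from this flag. Replicate 4 was also the deepest library of its group, with 6318379 counts, and had the lowest progenitor marker sum (0.856).

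In LT-HSC Ang II KO, replicate 2 had the lowest LT-HSC marker sum (0.889), the highest macrophage marker sum (0.942) and the lowest endothelial marker sum (0.863). It is among the 3 libraries that were set aside. The hepatocyte marker sum of LT-HSC Ang II het was highest in replicate 2 (0.881), and the intestinal marker sum of HPC-1 Ang II KO was lowest in replicate 2 (0.927), at 1.39 CPM. In the main edgeR fit no interaction was called for a gene of the lists. Ccng2 was called in 2 of 22 alternatives of the KO minus WT interaction between cell types under Ang II. Its values there ran from 1.76 to 3.11 over the alternatives.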

How the results depend on the processing

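In LT-HSC against HPC-1, the calls of Igf1r, Insr, Irs2, Igf2bp2 and Igfbp4 held under all 42 alternatives, that of Igf1 under 41 of 42 and that of Irs1 under 38 of 39 in which it was tested. Igf2bp3 was called under 0 of 41. Its fitted value of 0.03, which rests on a group at 0 counts and is no size, became -0.74 with all 6 strata, -0.0667 without the 3 libraries that stood apart and -0.46 with the Y-linked covariate, and it ran from -0.53 to 0.81 with libraries left out in turn. The cause was not tested. DESeq2 moved the median over all genes by 0.12 in the PBS het stratum.

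Members called rose from 0 to 1, Igfbp4, without a filter on low counts in LT-HSC KO for Ang II minus PBS and in LT-HSC PBS for KO minus het. Without replicate 2 of LT-HSC PBS KO, which stood apart, the main differences of -0.99 and 1.22 became -0.11 and 0.34.

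Counts of all genes called moved more. Without a filter, LT-HSC gave 833 (Ang II KO minus WT), 496 (Ang II het minus WT), 249 (Ang II KO minus het), 193 (PBS KO minus het), 57 (Ang II minus PBS in het) and 104 (in KO). HPC-1 gave 30 (Ang II KO minus WT), 33 (het minus WT), 1 (KO minus het), 52 (PBS KO minus WT), 21 (het minus WT), 1 (KO minus het), 11 (Ang II minus PBS in het) and 10 (in KO). The interactions gave 192 (KO minus WT between cell types), 78 and 15 (agent by genotype in LT-HSC and HPC-1) and 44 (cell type by agent).

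DESeq2 gave 780, 437 and 2 in LT-HSC under Ang II (KO minus WT, het minus WT, KO minus het), 1 for PBS KO minus het and 1 for Ang II minus PBS in KO. In HPC-1 it gave 2 and 2 under Ang II (KO minus WT, het minus WT), 14 and 6 under PBS, and 4, 1 and 1 for Ang II minus PBS in het, KO and WT. The KO minus WT interaction gave 58.

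With the compared groups alone, LT-HSC under Ang II gave 32 (KO minus WT) and 37 (het minus WT), HPC-1 gave 4 (Ang II KO minus WT), 28 (PBS KO minus WT) and 1 (PBS het minus WT), and the interaction gave 1. With the shallower libraries they were 29 and 16 in LT-HSC, 8 (PBS KO minus WT), 7 (PBS het minus WT), 8 (Ang II minus PBS in het) and 12 (in KO) in HPC-1, and 5 for the interaction. The Y-linked covariate gave 82 for LT-HSC Ang II het minus WT and 9 for HPC-1 PBS KO minus WT. A mean of at least 10 counts gave 15 for the interaction.

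Setting the 3 libraries aside, an alternative chosen after seeing the data, gave 777 (LT-HSC Ang II KO minus WT), 377 (het minus WT) and 19 (interaction). With libraries left out in turn, LT-HSC Ang II KO minus WT ran from 98 (without KO replicate 3) to 627 (without WT replicate 1), het minus WT from 53 (without het replicate 4) to 565 (without WT replicate 1), the interaction from 6 to 64, HPC-1 PBS KO minus WT from 0 to 1 and HPC-1 KO Ang II minus PBS from 0 to 1.

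The replicate block gave 97 (LT-HSC Ang II KO minus WT), 39 (het minus WT), 7 (HPC-1 PBS KO minus WT), 2 (PBS het minus WT), 7 (Ang II minus PBS in HPC-1 het) and 1 (in KO), and members called stayed the same. Same-numbered libraries correlated from -0.197 to 0.477 over 20 comparisons. Of 14 with 3 or more pairs, 1 (HPC-1 PBS KO against het, 0.124 to 0.477) had every pair above 0.1, and the block left its count at 0. In the other comparisons the replicate numbers were not taken as pairs. These correlations cannot show whether same-numbered libraries shared an animal or a batch.

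Depth limits Igf1 in HPC-1, Irs1 and Igf2bp3, which mostly lay at or near the floor of 3 counts.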
